A study of Mus musculus with 3 samples.

Results

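CD106-tagged stem cells were compared with untagged stem cells of the same pool, using the antibody tags, the open chromatin and the depth measured in each cell. A cell entered when it carried at least 10 tags summed over the 12 antibodies of the panel, which left 3629 of the 3724 cells of the antibody table. Groups were then chosen by the CD106 count alone. The 920 cells with 1 or more CD106 tags were called CD106-positive, and the 2709 cells with none were called CD106-negative. CD106 is the antigen name of VCAM1, encoded by Vcam1.

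The cells were long-term hematopoietic stem cells (LT-HSCs) from bone marrow of wild-type female C57BL/6J mice aged 24 months, enriched for c-Kit and sorted as lineage-negative Sca-1+c-Kit+ cells with CD150 and without CD48 or CD34. Both groups share this age, sex, genotype and sort, and no treatment is labeled. DOGMA-seq was applied, in which ATAC fragments, RNA and oligonucleotide tags of antibodies are read from the same cell. The study stained 12 surface antigens to separate platelet-biased (PLT) from multi-lineage (MUL) LT-HSCs, and each assay gave 1 library, so the groups have no replicates, no p-value is given, and all intervals are exact 95% intervals that cover counting error only.

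VCAM1 is an adhesion molecule of the immunoglobulin superfamily and the main ligand of the integrin α4β1 (VLA-4), which hematopoietic stem and progenitor cells carry. In bone marrow it is best known on stromal cells, on sinusoidal endothelium and on macrophages, and in endothelium its gene is induced through NF-kB. The panel also held antibodies to antigens known from macrophages, namely the lysosomal glycoprotein CD68, the hemoglobin-haptoglobin receptor CD163, the mannose receptor CD206 and the phagocytic receptor kinase MERTK.

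CD106 was read through 1 of 6 antibodies that the authors conjugated themselves, the others being CD68, CD163, CD183, CD206 and MERTK. The remaining 6 antibodies (CD27, CD61, CD201, CD274, CD357 and P2X7R) came with a supplier's tags. The tags of the 6 in-house antibodies are shown because they are the groups' defining reagent and the antibodies conjugated in the same way. Capitals mark each position, counted from the 5′ end, that is identical to the CD106 tag.
CD106: CGTTCCTACCTACCT
CD68: CtTTCtTtCacggga
CD183: CGTcCtaggacAta
CD206: gGTcgactaggtCg
CD163: gacgCgcgttgtCa
MERTK: gacgaacgtCcgCg
The CD68 tag shared 6 of 15 positions with the CD106 tag, the most among the other 11 tags, and so differed from it at 9 positions. MERTK and CD163 shared 2 of 14 compared positions each. In the authors' antibody list the descriptive name of the CD106 entry reads as an anti-CD68 antibody, while its identifier and catalog number are those of CD106. The identity of the antibody was not tested, and it is called CD106 here as in the identifier.

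CD106 was a sparse antibody. Its 1299 tags made up 1.14% of the 114345 tags of all 12 antibodies, a mean of 0.358 tags per cell (0.339 to 0.378). The positive cells were 25.4% of all cells (23.9 to 26.8%). Of them, 670 carried 1 tag, 174 carried 2, 48 carried 3, and 28 carried between 4 and 8, so most of the positive group lies 1 tag away from the negative group. A cut of 2 or more left 250 cells, 6.89% of the total (6.09 to 7.76%). At the lower edge of the cell filter, 33 cells had exactly 10 tags, of which 3 were CD106-positive, and 36 cells just outside it had 9. The table holds cells only and the panel has no isotype control, so the share of cells that unbound tag would give was not measured.

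Depth differed little between the groups. The median was 10362 ATAC fragments per cell in CD106-positive cells (quartiles 8404 and 12429) and 10281 in CD106-negative cells (8434 and 12077). RNA gave a median of 2012 unique molecules (UMIs) against 1964, and the other 11 antibodies gave 29 tags against 28. These differences were small beside the spread over cells, as the plot of depth shows. In both groups a median of 67.5% and 67.6% of fragments fell in peak regions, 46.9% at transcription start sites in each, and mitochondrial reads made up 0.207% and 0.217%.

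**Figure D1:**
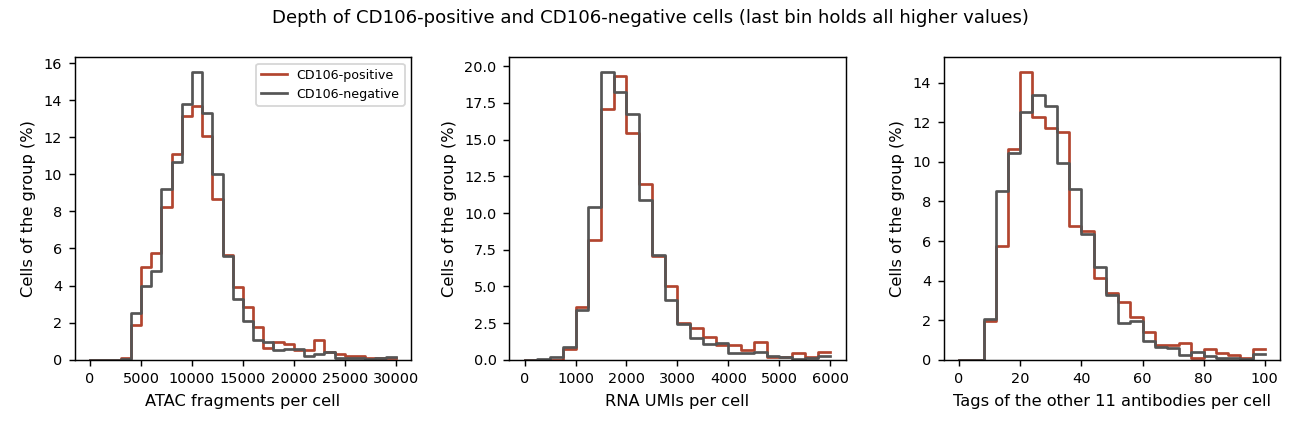
Distributions of ATAC fragments, RNA UMIs and tags of the other 11 antibodies per cell (x axes), as percent of the cells of each group (y axes), for 920 CD106-positive and 2709 CD106-negative cells. The curves of both groups overlap over most of their range but do not coincide, and the last bin of each panel holds all higher values.

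The CD106-positive share varied somewhat with depth. With the cells ranked by RNA UMIs into 5 classes of equal size, the CD106-positive share was 21.6% (18.7 to 24.8%) in the lowest class and 29.1% (25.8 to 32.5%) in the highest. Ranked by ATAC fragments it was 26.2% in the lowest class, 22.9% in the fourth and 29.2% (25.9 to 32.7%) in the highest. Ranked by the tags of the 6 pre-labeled antibodies it stayed between 23.9% and 27.7%. Cells with an excess of sites covered by 3 or more overlapping fragments, which take more than 2 copies of an autosome, as in doublets or in cells that have copied their DNA, made up 9.35% (7.55 to 11.4%) of CD106-positive and 6.16% (5.29 to 7.14%) of CD106-negative cells. Without these cells the log2 ratio of CD68 tags was 1.76, beside 1.64 with them, and that of MERTK tags 0.56, beside 0.61.

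The other 11 antibodies differed in how far they lay above CD106-negative cells. CD68 stood 3.12-fold higher (2.56 to 3.81), at 0.227 tags per cell (SD 1.08 over cells) against 0.0727 (SD 0.305). MERTK stood 1.53-fold higher (1.41 to 1.66), at 0.979 against 0.642 tags per cell. CD163 was 1.78-fold (1.13 to 2.75) and CD183 (CXCR3, a chemokine receptor of activated T cells) 1.34-fold (1.03 to 1.74). For CD163 the SD over cells was 0.302 on a mean of 0.0380, against 0.181 on 0.0214. For CD183 it was 0.589 on 0.0946, against 0.308 on 0.0705. CD206 was at 0.025 against 0.0225 tags per cell, and its interval of 0.656 to 1.82-fold spans no difference.

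Among the pre-labeled antibodies, CD27, CD61 (integrin β3), CD201 (EPCR), CD274 (PD-L1) and CD357 (GITR) all lay between 1.03- and 1.04-fold. Of these, CD274, with 20024 and 57205 tags, had an interval above 1 (1.01 to 1.05-fold). Its means of 21.8 and 21.1 tags per cell differed little beside SDs of 12.6 and 11.8 over cells. None of these intervals covers that spread between cells. P2X7R, an ATP-gated cation channel, was 1.17-fold (1.06 to 1.29), and 1.12-fold (1.01 to 1.23) as a share of the tags of the other 11 antibodies. Summed, the 5 other in-house antibodies were 1.65-fold higher (1.53 to 1.76) and the 6 pre-labeled ones 1.03-fold (1.02 to 1.05). Without the 1 cell with the most in-house tags, described below, the in-house sum was 1.51-fold higher (1.40 to 1.62). With that cell included, CD68 and MERTK gave 209 and 901 of the 1255 in-house tags of CD106-positive cells, so the sum mostly reflects these antibodies. As a share of the tags of the other 11 antibodies, CD68 was 0.703% against 0.236% and MERTK 3.03% against 2.09%. On this scale CD274 turned to 0.981-fold (0.966 to 0.997) and the 6 pre-labeled antibodies together to 0.984-fold (0.971 to 0.998), and the interval of CD183 (0.979 to 1.65) included no difference. Of the 5 other in-house antibodies, 4 recognize macrophage antigens, so in-house conjugation and antigen class cannot be told apart in this panel. The study drew its candidate antigens from genes that differ between stem cell clones of known lineage output. Cd68 and Mertk are also on the list of genes higher in RNA of PLT-HSC clones.

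**Figure D2:**
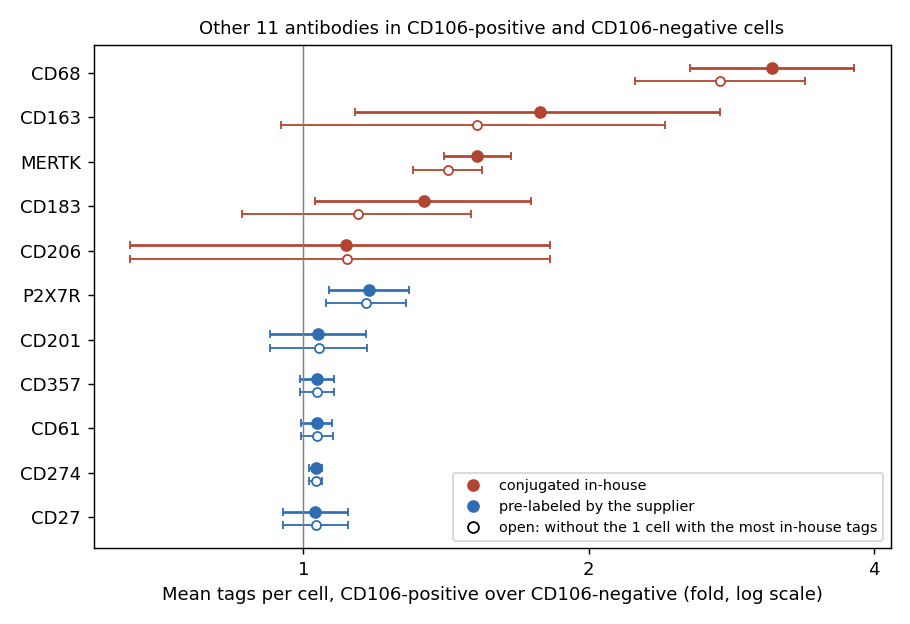
Mean tags per cell in CD106-positive over CD106-negative cells (x axis, fold on a log scale) for the other 11 antibodies, with exact 95% intervals as bars. Filled points hold all 3629 cells and open points leave out the 1 cell with the most in-house tags. The intervals of CD68, MERTK and the pre-labeled P2X7R and CD274 stay above 1 both ways, while those of CD163 and CD183 reach 1 without that cell.

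A few cells weighed on these means, and 1 of them most. It carried 107 tags of the 5 in-house antibodies other than CD106, against 23 in the next highest cell, with 64 for MERTK, 25 for CD68, 13 for CD183, 5 for CD163 and 8 for CD106. Its ATAC fragments (11150), RNA UMIs (1584) and pre-labeled tags (42) lay within the range of the other cells. Without it, CD68 remained at 2.75-fold (2.24 to 3.38) and MERTK at 1.42-fold (1.31 to 1.54). The pre-labeled P2X7R was at 1.16-fold (1.06 to 1.28). CD163 then came to 1.52-fold (0.947 to 2.41) and CD183 to 1.14-fold (0.861 to 1.501), intervals that include no difference. Without all 13 cells that carried 10 or more such tags, 6 of them CD106-positive, a cut chosen after the data were seen, CD163 came to 1.33-fold (0.801 to 2.14) and CD183 to 0.996-fold (0.738 to 1.33), while CD68 was at 2.81-fold and MERTK at 1.401-fold. With 2 or more CD106 tags as the cut, CD68 was 6.05-fold higher than in CD106-negative cells with that cell and 4.69-fold without it, and MERTK 2.39-fold and 2.003-fold. At this cut CD163 was 3.36-fold and CD183 2.38-fold higher with that cell, and 2.44-fold (1.23 to 4.50) and 1.65-fold (1.08 to 2.45) without it. As a share of the tags of the other 11 antibodies, CD183 was then 1.47-fold higher, with an interval (0.96 to 2.18) that includes no difference. At this cut, with that cell included, the pre-labeled antibodies other than CD27 and CD201 also had intervals above 1, at 1.16-fold (1.09 to 1.25) for CD357, 1.08-fold (1.01 to 1.15) for CD61, 1.08-fold (1.051 to 1.11) for CD274, 1.28-fold (1.08 to 1.496) for P2X7R and 1.09-fold (1.07 to 1.12) for all 6. As a share of the other 11, those 6 were 0.962-fold (0.940 to 0.984). The intervals at this cut again leave out the spread between cells.

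In shares of cells, each cell counts once. A CD68 tag was present on 11.96% (110 cells) of CD106-positive and 6.31% (171 cells) of CD106-negative cells, and a MERTK tag on 47.6% against 37.8%. For CD163 the shares were 2.39% against 1.81%, for CD183 6.74% against 6.02% and for CD206 2.39% against 2.21%. P2X7R tags were on 39.0% against 35.7% of cells. CD27 tags were on 55.8% against 56.8%, although the mean was 1.03-fold higher in CD106-positive cells, and both differences lay within counting error. Read the other way, CD106 was present on 39.1% (33.4 to 45.1%) of the 281 CD68-tagged cells and on 24.2% (22.8 to 25.7%) of the cells without a CD68 tag. On MERTK-tagged cells the CD106 share was 29.98% (27.6 to 32.4%) against 22.2% (20.5 to 24.0%). On P2X7R-tagged cells it was 27.1% (24.7 to 29.6%) against 24.3% (22.6 to 26.2%). For CD27, CD61, CD201 and CD357 the share differed by less than its interval between tagged and untagged cells. The same held for the in-house CD163, at 31.0% (20.5 to 43.1%) against 25.2%, and CD183, at 27.6% (21.8 to 33.9%) against 25.2%. It also held for CD206, at 26.8% (17.6 to 37.8%) against 25.3%.

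Drawing 10 of the other 11 antibodies' tags from each cell, by the exact expectation and with 4 CD106-positive cells below that number left out, put CD68 on 5.32% against 2.49% of cells and MERTK on 22.9% against 18.3%. CD183 was then on 2.49% against 2.41%, and P2X7R on 17.4% against 15.9%. The CD68, MERTK and P2X7R shares thus stayed higher in CD106-positive cells at an equal number of tags. ATAC and RNA depth were not matched in this draw.

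The MERTK share climbed at each CD106 count, and the CD68 share was highest at 3 or more CD106 tags. The median of the other 11 antibodies was 28, 29, 30 and 34 tags per cell over the same classes, so depth moved with the count as well. CD68 was on 6.31%, 10.4%, 9.20% and 31.6% of cells with 0, 1, 2 and 3 or more CD106 tags. MERTK was on 37.8%, 44.6%, 51.7% and 64.5%. The 76 cells in the top class had P2X7R tags on 60.5% (48.6 to 71.6%), against 33.9% (26.9 to 41.5%) at 2 CD106 tags, and CD183 tags on 15.8% (8.43 to 26.0%) against 5.17% (2.39 to 9.59%). CD201 stayed between 30.5% and 35.5% over the 4 classes. CD163 was on 1.81%, 1.64%, 3.45% and 6.58% of cells, the last with an interval of 2.17 to 14.7%. CD206 showed no rise, at 2.21%, 2.54%, 1.72% and 2.63%, but the last value has a wide interval (0.320 to 9.18%).

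**Figure D3:**
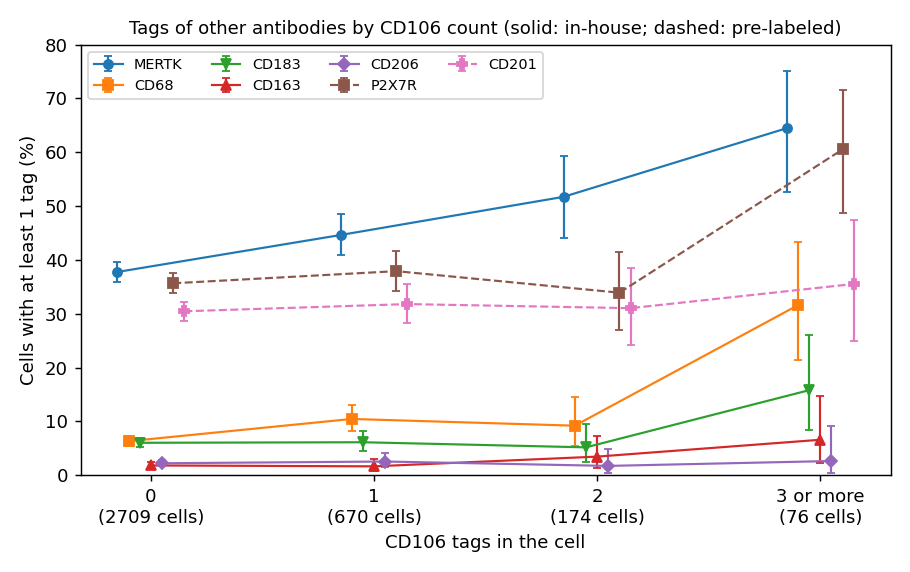
Percent of cells with at least 1 tag (y axis) of 5 in-house antibodies (solid lines) and of P2X7R and CD201 (dashed lines) by the number of CD106 tags in the cell (x axis), with exact 95% binomial intervals. MERTK climbs at each step from 37.8 to 64.5%, CD68 reaches 31.6% in the 76 cells with 3 or more CD106 tags, and CD206 and CD201 stay nearly level.

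The relations were weak cell by cell. Over 3629 cells, Spearman's rho with the CD106 count was 0.10 for CD68 and for MERTK, 0.04 for P2X7R, 0.03 for CD61 and 0.02 for CD163, and every one of these points shares its cell's depth. Among the 10 pairs of the other in-house antibodies rho ran from -0.01 for CD163 and CD206 to 0.06 for CD183 and MERTK. Tags of at least 2 of the 5 other in-house antibodies were found on 12.5% (10.4 to 14.8%) of CD106-positive and 7.24% (6.29 to 8.28%) of CD106-negative cells, and tags of at least 3 on 2.07% against 0.480%.

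Gates modeled on the study's platelet and multi-lineage marker panels were set on raw tag counts, with high taken as above the median of all cells. These are not the study's own cuts, and by flow cytometry the study placed most HSCs of this age in its PLT gate. Antibody depth was not matched between the gates. CD106 was present on 26.9% (22.3 to 31.9%) of 342 cells in the PLT gate (CD61 and CD274 high, CD357 and CD27 low) and on 18.03% (9.36 to 29.98%) of 61 cells in the MUL gate (the reverse). These intervals overlap, and whether CD106 differs between the gates was not tested.

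The Vcam1 gene was examined first in the chromatin. It lies on the minus strand of chromosome 3 at chr3:116109949-116129688 (mm10, GENCODE M21 annotation). Over the gene and 2 kb upstream, 52 fragments came from CD106-positive and 154 from CD106-negative cells, or 5.22 (3.90 to 6.84) and 5.40 (4.58 to 6.32) per 1000000 nuclear fragments (FPM). The log2 ratio was -0.04 (-0.53 to 0.41), so a rise above 1.33-fold was outside the interval and smaller ones were not detectable at this depth. A Vcam1 fragment was found in 5.11% (3.78 to 6.74%) of CD106-positive and 5.13% (4.33 to 6.03%) of CD106-negative cells.

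At the promoter, taken as 1 kb on either side of the start, the groups held 23 and 73 fragments, with a log2 ratio of -0.13 (-0.89 to 0.54). The total of 96 placed Vcam1 at percentile 35.8 among 21938 protein-coding promoters of equal length, whose median was 382. Along the locus, the kilobase after the start held 14 and 47 fragments, equal to 1.40 (0.768 to 2.36) and 1.65 (1.21 to 2.19) FPM, and the kilobase before it 8 and 25. With 2 or more CD106 tags as the cut, the gene held 9 fragments in 250 cells and the log2 ratio was -0.65 (-1.88 to 0.23). At neither cut was Vcam1 more accessible in tagged cells beyond counting error.

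**Figure D4:**
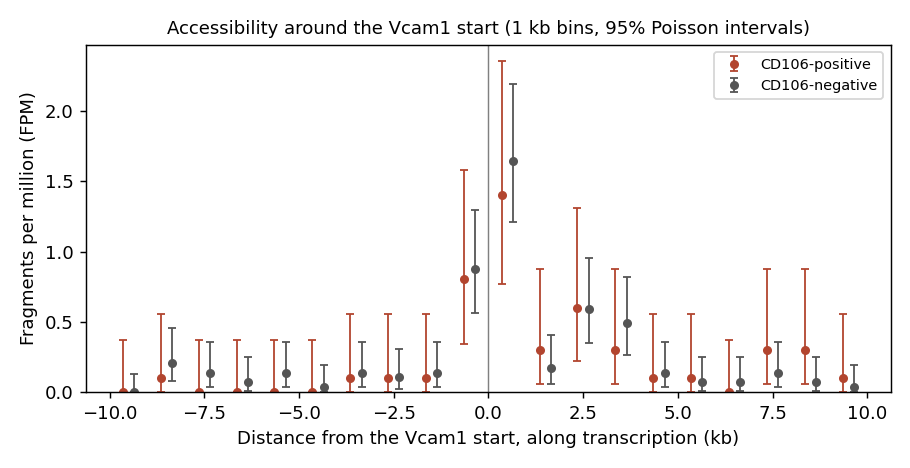
Fragments per 1000000 nuclear fragments (FPM, y axis) in 1 kb bins by distance from the Vcam1 start along the direction of transcription (x axis, kb), for CD106-positive and CD106-negative cells with exact 95% Poisson intervals. The bins on either side of the start are the highest in both groups, and the intervals of the groups overlap there.

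The genes of all 12 antigens passed the minimum of 200 fragments over both groups, and none differed by 1.5-fold, beside 0.0146% higher and 0.0584% lower over all genes. Cd68, whose tags differed most, held 144 and 368 fragments with a log2 ratio of 0.17 (-0.13 to 0.44). Mertk was at -0.09 (-0.22 to 0.04), Cd163 at 0.01 (-0.29 to 0.29), Mrc1 (CD206) at 0.18 (-0.00042 to 0.36) and Cxcr3 (CD183) at -0.17 (-0.46 to 0.10). For the pre-labeled antigens the ratios were -0.14 for Cd274, 0.05 for Tnfrsf18 (CD357), -0.08 for Cd27, -0.07 for Procr (CD201), -0.05 for P2rx7 and 0.00 for Itgb3 (CD61), and each of these intervals included 0. A gap of the size seen in CD68 and MERTK tags was thus not found at their genes. Tags count bound antibody and fragments count open chromatin, so the folds need not be alike. A CD68 tag was on only 11.96% of CD106-positive cells, and the sums over the gene cover all cells of each group.

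Over all genes the groups differed by little more than counting error. Of 20545 genes with at least 200 fragments, 3 (0.0146%) were 1.5-fold or more higher in CD106-positive cells and 12 (0.0584%) lower. Of 15400 promoters, 4 (0.026%) were higher and 13 (0.0844%) lower. Of 19714 distal windows of 1 kb, all at least 2 kb from any gene start, 30 (0.152%) were higher and 71 (0.36%) lower. Nuclear fragments numbered 9970279 in CD106-positive and 28528083 in CD106-negative cells. With totals this unequal, counting error alone takes more low-count features past 1.5-fold downward than upward. Whether the lower features outnumber the higher ones by more than this was not tested, so their larger counts are not read here as lost accessibility. The SD of the log2 ratios was 1.08 times the counting error for genes, 1.06 times for promoters and 1.05 times for windows. Among the 12912 genes with at least 1000 fragments, the ratios ran from -0.39 to 0.38. Promoters took 37.5% of the fragments of CD106-positive and 37.7% of those of CD106-negative cells, and the log2 ratio of any autosome or the X chromosome lay between -0.01 and 0.01.

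**Figure D5:**
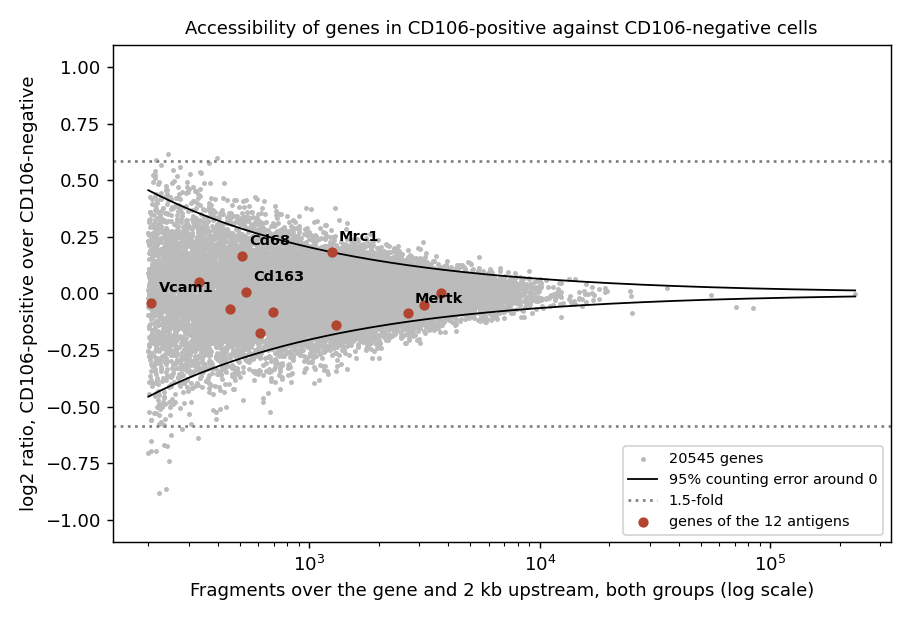
Log2 ratio of CD106-positive over CD106-negative cells (y axis) against the fragments over each gene and 2 kb upstream in both groups (x axis, log scale) for 20545 genes, with the 95% counting error around 0 as solid lines and 1.5-fold as dotted lines. The genes of the 12 antigens (red) lie within the counting error apart from Mrc1 on its edge, and all 15 genes past 1.5-fold held fewer than 500 fragments.

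The genes with the highest lower bounds were Parvg (parvin gamma, an actin-linked partner of integrin-linked kinase), Galnt17 (a GalNAc transferase homolog), Nid1 (nidogen 1, a basement membrane protein), Csmd1 and 1700017L05Rik. Parvg held 138 and 261 fragments (log2 0.60, 0.29 to 0.90), and Nid1 85 and 159 (0.62, 0.22 to 1.002). The extreme genes, promoters and windows named here and below were picked by these bounds. Intervals clear of 0 follow from that choice and lend no support. Galnt17 was at 0.58, Csmd1 at 0.38 and 1700017L05Rik at 0.54. At a CD106 count of 2 or more Parvg stood at 11.6 FPM, on 32 fragments, against 14.7 at a count of 1, on 106. Whether it changes with the count was not tested. Csmd1, a gene of over a megabase with 401 and 885 fragments, fell to 0.15 without the cells with excess overlapping fragments and to 0.13 without the deepest cells.

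The genes with the lowest upper bounds were Mixl1 (a homeobox gene of early mesoderm), the antisense gene Gm17088, Npff (a neuropeptide precursor), the antisense gene A630012P03Rik and the noncoding Gm47480. Mixl1 held 35 and 187 fragments (log2 -0.88, -1.47 to -0.37), and Gm17088 38 and 200 (-0.86, -1.42 to -0.37). Npff was at -0.74, A630012P03Rik at -0.53 and Gm47480 at -0.64. ATAC fragments carry no strand, so the antisense genes share theirs with the genes they overlap. Mixl1 moved to -0.23 with a CD106 count of 2 or more, on 15 fragments, whereas Gm17088 went to -2.11, on 4 fragments.

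At promoters the highest lower bounds were those of Fam124a (132 and 244 fragments, log2 0.63), Foxl1 (0.57), Abi3 (0.50), Fstl3 (0.64) and Tbc1d12 (0.40). The lowest upper bounds were those of Lama3, the laminin α3 chain (46 and 257 fragments, log2 -0.95, -1.45 to -0.51), Gpc3 (-0.70), Ikbke (-0.77), Npff (-0.78) and Mst1 (-0.72). Ikbke encodes a kinase of the NF-kB and interferon pathways, but its promoter was chosen by its rank among all promoters and belongs to none of the lists.

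The distal windows with the highest lower bounds were chr12:110418001-110419000 (intergenic, log2 0.74, 0.34 to 1.13), chr1:93217001-93218000 (over an exon of Crocc2, 0.68), chr4:62685001-62686000 (intron of Rgs3, 0.69), chr14:73370001-73371000 (intron of Itm2b, 0.73) and chr3:88536001-88537000 (over an exon of Mex3a, 0.60). Those with the lowest upper bounds were chr2:11331001-11332000 (intergenic, -0.90, -1.44 to -0.42), chr15:102249001-102250000 (intron of Rarg, -0.93), chr17:72158001-72159000 (intron of Alk, -0.81), chr16:24826001-24827000 (intron of Lpp, -0.88) and chr4:152130001-152131000 (over an exon of Espn, -0.77). All 10 held between 203 and 417 fragments, close to the minimum.

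The adhesion genes around VCAM1 had ratios near 0. All 25 genes of this list were measured and none passed 1.5-fold, a count that says little where 0.0146% of all genes were higher and 0.0584% lower. Their median log2 ratio was 0.02, beside -0.00051 over all genes. The integrin chains that bind VCAM1 were at -0.10 (-0.23 to 0.04) for Itga4, -0.07 (-0.22 to 0.07) for Itgb1, -0.12 for Itgb7, -0.07 for Itga9, 0.04 for Itgad and 0.03 for Itgb2. The ERM proteins, which tie VCAM1 to actin, were at -0.03 (Ezr), 0.09 (Msn) and -0.04 (Rdx), and Adam17, the protease that sheds VCAM1, at -0.03. Other adhesion molecules ranged from -0.08 for Alcam to 0.12 for Icam1 and F11r, with Icam2 at 0.08, Pecam1 at -0.01, Madcam1 at 0.02, Jam2 at 0.09, Jam3 at 0.10, Esam at -0.00, Cd44 at 0.07, Mcam at 0.04, Selp at 0.03 and Selplg at -0.01. The interval of each of the 25 included 0.

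Genes that induce Vcam1 or act in NF-kB had a median log2 ratio of 0.01. Of 21, 20 were measured and none passed 1.5-fold, again at a background of 0.0146% higher and 0.0584% lower. Nr1h3 (0.11) and Relb (0.10, 0.00185 to 0.19) were the highest, and Il4ra (-0.11) and Traf2 (-0.05) the lowest. Among self-recognition and phagocytosis signals, 0 of 11 measured genes passed, from Cd274 (-0.14) and Cd200 (-0.10) to Calr (0.05) and Stab1 (0.05).

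The macrophage list, which includes Vcam1, differed by less than counting error in sum. Of its 18 genes, 14 were measured and none passed 1.5-fold, at the same background. Summed over all 18 they held 3997 and 11540 fragments, a log2 ratio of -0.01 (-0.07 to 0.04). Mrc1 (0.18) and Cd68 (0.17) were the highest, Axl (-0.12) and Mertk (-0.09) the lowest. None of the 18 was at 0 in either group; the 4 below the minimum were C1qb (20 and 49 fragments), C1qa (17 and 84, log2 -0.75, -1.63 to -0.02), Adgre1, which encodes F4/80 (41 and 87, 0.44, -0.14 to 0.98), and Spic (39 and 118). CD106-positive cells with a CD68, CD163, CD206 or MERTK tag (498 cells) held 416 (399 to 434) FPM over the macrophage genes. CD106-positive cells without one (422 cells) held 383 (365 to 401), and cells without any of the 5 tags (1528 cells) 400 (390 to 410). The 1181 CD106-negative cells with a CD68, CD163, CD206 or MERTK tag were not summed on their own. Whether the 416 FPM goes with CD106 or with the other tags was therefore not tested.

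The sort label was checked at promoters, which have equal length. The median promoter of 14 stem cell genes held 662.5 fragments over both groups, against 135 for macrophage, 115 for myeloid, 73.5 for B cell, 40 for erythroid and 26 for T cell genes. Stromal (372), megakaryocyte (364) and endothelial (286) genes lay between, although the sort should leave stromal and endothelial cells out. DNA replication genes were higher, at 1348.5, and the median of all protein-coding promoters was 382, so that the order of the lists did not follow the labeled cell type throughout.

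No gene of the remaining lists passed 1.5-fold, beside 0.0146% higher and 0.0584% lower among all genes. Stem cell genes (14 measured, median -0.02) ran from Hlf (-0.12, -0.21 to -0.03) and Ctnnal1 (-0.11) to Slamf1, the CD150 gene (0.09), and Hoxb5 (0.10). Megakaryocyte genes (11, median 0.00) ran from Itga2b (-0.08) and Pf4 (-0.08) to Gp9 (0.18) and Gp1bb (0.24). Endothelial genes (11, median 0.05) ran from Flt4 (-0.06) and Sox18 (-0.05) to Tie1 (0.09) and Tek, the angiopoietin receptor (0.29, 0.07 to 0.50). Stromal genes (11, median -0.01) ran from Cxcl12 (-0.12) and Ebf3 (-0.10) to Col1a1 (0.13) and Col1a2 (0.23).

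Erythroid genes (7, median 0.06) ran from Epor (-0.21) and Klf1 (-0.19, -0.35 to -0.03) to Gata1 (0.17) and Ermap (0.22). Myeloid genes (7, median 0.02) ran from Cebpe (-0.34) and Mpo (-0.00098) to Prtn3 (0.06) and Elane (0.16). B cell genes (5, median -0.05) ran from Vpreb1 (-0.18) and Cd79b (-0.17) to Pax5 (-0.03) and Rag2 (-0.03). T cell genes (7, median 0.02) ran from Lck (-0.15, -0.27 to -0.03) and Cd4 (-0.07) to Tcf7 (0.07) and Zap70 (0.18). DNA replication genes (18, median 0.02) ran from Mcm2 (-0.12) and Mcm5 (-0.06) to Rrm1 (0.13) and Mcm3 (0.27, 0.08 to 0.45).

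Genes that the study tied to platelet or multi-lineage fate had medians near 0. The 6 genes of the PLT panel had a median of 0.01, from Plek2 (-0.26) and Gpr4 (-0.23, -0.44 to -0.02) to Pdgfc (0.07) and Neo1 (0.09). The 7 of the MUL panel had a median of 0.01, from Flt3 (-0.10) and Cd27 (-0.08) to Clec4d (0.06) and Sec16b (0.06). Of genes higher in RNA of PLT-HSC clones, 63 were measured, with a median of 0.00, from Plek2 (-0.26) and Gpr4 (-0.23) to Cdc42ep5 (0.27) and Nsg1 (0.28). Of those higher in MUL-HSC clones, 59 were measured, with a median of 0.03. They ran from Epb42 (-0.24) and Lat (-0.17) to Atp1b1 (0.22, 0.06 to 0.37) and Syce2 (0.23, 0.06 to 0.40). At the promoters of the same 18 lists, 0 genes passed 1.5-fold, beside 0.026% higher and 0.0844% lower over all promoters. Many promoters of the lists lay below the minimum, so that 8 of 18 macrophage, 3 of 10 B cell and 3 of 10 T cell genes were measured there, and the count of 0 says nothing particular about the lists. Summed over promoters, the MUL-HSC clone genes held 11151 and 31006 fragments, a log2 ratio of 0.0413 (0.00995 to 0.0726), the only sum among the 18 lists, at genes or promoters, whose interval left out 0.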

How the data were processed

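ATAC, RNA and antibody tags were measured in 1 pool of LT-HSCs, with 1 library each. Per the file headers, the authors made the ATAC fragment counts and the counts per barcode with Cell Ranger ARC 2.0.2 (version from the submitters' processing notes) on mm10, with duplicates collapsed and ends shifted for the transposase. The deposited tag counts came from CITE-seq-Count, whose version and mismatch setting are not given in the sources used here. RNA was used only as totals per barcode. All 3724 cells of the antibody table were called cells in the other assays, and doublets were not removed.

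Fragments were counted over GENCODE M21 genes plus 2 kb, promoters (1 kb on either side) and distal 1 kb windows; a fragment over overlapping genes counts for each. Log2 ratios used counts plus 0.5, scaled by 9970279 and 28528083 nuclear fragments (pandas 2.3.3, scipy 1.17.1). Features needed 200 fragments, and 1.5-fold marked a difference. Intervals are exact Poisson, Clopper-Pearson or conditional binomial ones; reads are not independent molecules. The ratio step was tested on simulated data. The members and lists were chosen with earlier results of these data known. Named genes were Vcam1, the antigen and adhesion genes, the 5 extreme bounds at each end, and the 2 highest and 2 lowest measured members of each other list. Of the adhesion genes, 1 is not reported here by name.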

Additional observations from a re-analysis of the deposited data

Results flagged for a closer look

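Tags that matched no antibody, which enter no comparison, were more frequent on CD106-positive cells. They came to 4.61 per cell in CD106-positive cells, above the 4.25 per cell in CD106-negative cells, a ratio of 1.08 (1.05 to 1.12, counting error only). As a share of the tags of the other 11 antibodies the ratio was 1.03 (0.996 to 1.07), an interval that includes no difference. Without the 1 cell with the most in-house tags it was 1.08 in tags per cell.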

How the results depend on the processing

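No paired analysis was possible because each assay had 1 library and all groups are cells of that library. Taking 2 or more tags as CD106-positive gave 6.89% positive cells, a log2 ratio of 0.19 for the other 11 antibodies and of -0.65 for Vcam1, and 258 genes, 277 promoters and 855 windows past 1.5-fold, in a group of 250 cells. With a minimum of 50 fragments, 434 genes, 353 promoters and 9949 windows passed, and with 500 fragments 0 of each passed, so passing 1.5-fold went with low counts. Cells with at least 30 tags of the other 11 antibodies gave 25, 27 and 30. Counting fragments by their 2 ends gave 110, 94 and 974, since 200 ends are reached with fewer fragments. For the other 11 antibodies the log2 ratio of 0.0709 became 0.129 without CD274, 0.0212 in cells with at least 20 tags, 0.0421 without cells with excess overlapping fragments and 0.0479 without the deepest 5% of cells. Leaving out cells with a CD68, CD163, CD206 or MERTK tag, which was chosen after seeing the data, gave 21.6% positive cells and 37 genes, 49 promoters and 49 windows. In all these changes of cells, minimum or counting, the number of features tested changed as well and is not given here. Their counts are therefore not comparable, as shares, with those of the main setting. Leaving out the cell with the most in-house tags, also chosen afterwards, and the weighting by depth and the scaling by promoter fragments kept each of the summary values above within its interval or within 1.5 times of its count. The sum of the 5 other in-house antibodies, at 1.51-fold without that cell, fell below its interval. Vcam1 stayed within its interval under the other alternatives, from -0.31 to 0.14. Of single antibodies, 55 of 66 alternative values lay within the interval of the value reported, and of single genes, promoters and windows 625 of 650, with no change of sign among those past 1.5-fold. Depth limits what can be said of Vcam1, with 206 fragments, and with 1 pool the spread between animals was not measured.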
